A study of Mus musculus with 31 samples.

Results

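Polycystic kidneys of mice that shared strain, age and treatment differed widely in how much Lcn2 mRNA they held. The upper 6 and the lower 6 of 12 kidneys in that range were compared gene by gene. Lcn2 encodes neutrophil gelatinase-associated lipocalin (Ngal), a siderophore-binding protein that injured tubular epithelium makes and sheds into urine, which is why it is used as a marker of kidney injury. The comparison used the 12 PBS-injected Pcy/CD1 mice among the 31 mice of the study. The 6 PBS mice with the highest Lcn2 level formed the high-Lcn2 arm and the other 6 formed the low-Lcn2 arm. Because the arms were chosen by a measured transcript, every difference between them is given as a description, and genes were tested only in mice that had no part in the choice.

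Pcy/CD1 mice carry the recessive pcy mutation on the CD1 background and develop slowly progressing cysts. All 12 PBS mice were male Pcy/CD1 mice injected subcutaneously with PBS from 5 weeks of age and killed at 30 weeks, and 1 kidney library was deposited for each. The 14 RGLS4326-treated mice were of the same strain and age and received the anti-miR-17 oligonucleotide RGLS4326 at 25 mg kg−1 monthly over the same weeks. The 5 wild-type mice were untreated, age-matched male CD1 mice. Whole kidney was sequenced, so that fewer cells of a type and less RNA per cell cannot be told apart. Cyst size, kidney weight and renal function of single mice were not analysed here, and "high-Lcn2" therefore names a transcript level and not a histological grade.

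A healthy kidney cortex is dominated by proximal tubule, which reabsorbs filtered solutes and burns fatty acids for energy. In cystic disease the tubules dilate, the epithelium lining the cysts takes on an immature, proliferating state, macrophages gather around the cysts, and fibroblasts lay down matrix between them. These processes and the transport programme of the tubule are the subject of the gene groups described here.

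Lcn2 lies on chromosome 2 from 32384637 to 32387739 in GRCm38.p6. Levels are given as CPM, the count of a gene scaled to the library's total count on genes. In the high-Lcn2 arm the values were 1404 CPM in PBS mouse 10, 1223 in mouse 5, 1001 in mouse 9, 933 in mouse 3, 626 in mouse 2 and 518 in mouse 11. In the low-Lcn2 arm they were 455 CPM in mouse 6, 409 in mouse 12, 377 in mouse 8, 343 in mouse 7, 241 in mouse 1 and 206 in mouse 4. The values fell on a continuous scale with no gap at the border, where mouse 11 at 518 CPM was the last member of the high-Lcn2 arm and mouse 6 at 455 CPM the first of the low-Lcn2 arm. Wild-type kidneys held between 0.772 and 9.52 CPM, so even the PBS mouse with the least Lcn2 lay above every wild-type mouse. RGLS4326-treated mice spanned 120 to 630 CPM in 13 of 14 animals, while treated mouse 9 had 2.46 CPM, within the range of wild type.

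**Figure D1:**
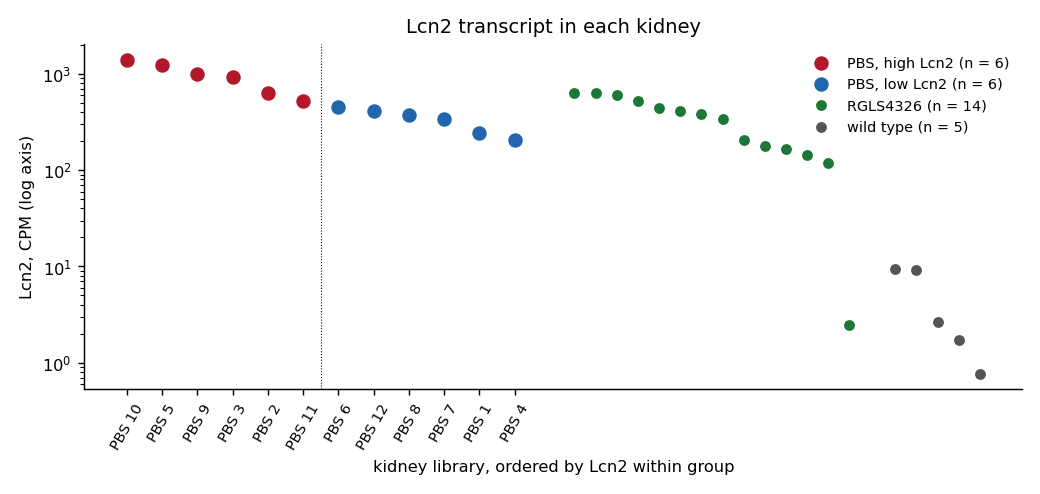
Lcn2 in CPM on a log axis for each kidney library, ordered within group, with the 12 PBS mice named and a dotted line between the arms. PBS mouse 11 at 518 CPM and PBS mouse 6 at 455 CPM stand on either side of the line, and 13 of the 14 treated mice lie above the 5 wild-type mice.

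The promoter of Lcn2 and those of 2 genes named later are shown because each holds a match to one of the 4 motifs searched. The motifs were TTCNNNGAA of the STAT factors, TTGCNNAA of C/EBP, GGANTTTCC of NF-kB and CAAAGTCCA of HNF4A, read on both strands from 250 bases before to 50 bases after the transcription start, and no matches overlapped in the sequences printed. RefSeq gave such a promoter for 11 of the 21 genes that comprise Lcn2 and the 20 genes of largest difference. The sequences are 5′ to 3′ on the strand of the gene in GRCm38.p6, with motif matches in capitals. Lcn2 (chr2:32387690-32387989, minus strand) and Fcamr (chr1:130800652-130800951, plus strand) each hold 1 C/EBP match, and Trpv6 (chr6:41636356-41636655, minus strand) holds a STAT match followed by an HNF4A match.
Lcn2: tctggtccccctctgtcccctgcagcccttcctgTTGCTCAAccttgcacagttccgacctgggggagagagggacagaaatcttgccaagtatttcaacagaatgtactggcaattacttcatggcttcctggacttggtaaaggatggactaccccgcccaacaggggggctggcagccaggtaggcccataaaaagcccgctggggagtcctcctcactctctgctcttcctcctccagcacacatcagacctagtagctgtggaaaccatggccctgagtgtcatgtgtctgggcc
Trpv6: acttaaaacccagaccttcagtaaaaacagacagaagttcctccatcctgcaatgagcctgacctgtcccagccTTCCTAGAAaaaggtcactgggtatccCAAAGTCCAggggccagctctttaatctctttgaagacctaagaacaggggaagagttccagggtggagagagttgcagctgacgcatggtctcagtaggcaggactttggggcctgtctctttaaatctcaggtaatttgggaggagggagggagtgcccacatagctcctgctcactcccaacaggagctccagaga
Fcamr: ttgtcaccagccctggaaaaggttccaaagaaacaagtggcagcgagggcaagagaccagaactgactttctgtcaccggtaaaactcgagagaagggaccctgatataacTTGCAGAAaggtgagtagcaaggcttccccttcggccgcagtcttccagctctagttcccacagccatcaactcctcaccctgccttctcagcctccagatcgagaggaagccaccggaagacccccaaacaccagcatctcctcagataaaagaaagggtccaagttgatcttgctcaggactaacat

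The C/EBP letters occur in 10.8% of all 32851 promoters of this length, the STAT letters in 8.30%, the NF-kB letters in 1.25% and the HNF4A letters in 0.475%. Among the promoters of genes lower in the high-Lcn2 arm, 6 of 242 (2.48%) held the HNF4A letters, against 0.481% of the promoters of all measured genes, and they belonged to Aadat, Aspdh, Hsd3b3, Osbpl6 and Pdzk1. The NF-kB letters stood in 7 of 237 promoters (2.95%) of genes higher in the high-Lcn2 arm, against 1.36% of those of all measured genes. The shares of promoters with the STAT or C/EBP letters were 9.28% and 10.5% for the genes higher in the arm and 8.26% and 10.3% for the genes lower in it, against 7.10% and 8.84% of those of all measured genes.

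PBS libraries held 16519885 to 25582754 counts on genes, with 19075127 to 25582754 in the high-Lcn2 arm and 16519885 to 21478220 in the low-Lcn2 arm. The share of reads outside genes was 9.27% ± 0.621 and 9.24% ± 0.364 (SD, n = 6 each). Detected genes numbered 17382 to 17541 in the high-Lcn2 arm and 17043 to 17485 in the low-Lcn2 arm. Only mouse 6, at 17485, made the arms overlap, and the other low-Lcn2 libraries had at most 17201. Each of the 3 numbering series in the deposited library names held mice of both arms. All later levels are CPM after scaling by trimmed mean of M values (TMM), and differences are of mean log2(CPM + 1), which understates the change of genes with low levels.

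Across the 15184 genes measured, with Lcn2 left out, 268 genes were higher and 252 lower in the high-Lcn2 arm with no overlap between the 6 values of either arm and a mean difference of at least 0.5 on the log2 scale. These separated genes were 1.77% and 1.66% of the genes measured. The median absolute difference was 0.60 among those higher and 0.62 among those lower, while the median signed difference over all genes was 0.01. Scaling by plain library size in place of TMM moved the median of all genes to 0.13 and gave 576 higher and 99 lower, so the balance between directions depends on the scaling. Of the 268 and 252 separated genes, 259 and 99 were separated under both scalings. When differences were averaged within the 3 numbering series, 264 of 268 and 250 of 252 still differed by at least 0.5. The direction of the 520 separated genes could not change there. Each series held mice of both arms, and the arms did not overlap for these genes.

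The mice on either side of the border lay close together on the main axis of variation. The first principal component of 13847 genes without Lcn2 carried 51.7% of the variance among PBS mice. High-Lcn2 mice 10, 5, 9, 3 and 2 lay between 11.9 and 28.2 on it, low-Lcn2 mice 12, 8, 7, 1 and 4 between −26.9 and −15.7, and mice 11 and 6 side by side at −3.9 and −3.7. On the second component, with 15.5% of the variance, they lay apart at −8.7 and −17.4. Without PBS mouse 6 the separated genes numbered 586 higher and 422 lower, without PBS mouse 11 they numbered 639 and 482, and without both 927 and 624, the first 2 of these settings having been planned and the last chosen after the data were seen.

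**Figure D2:**
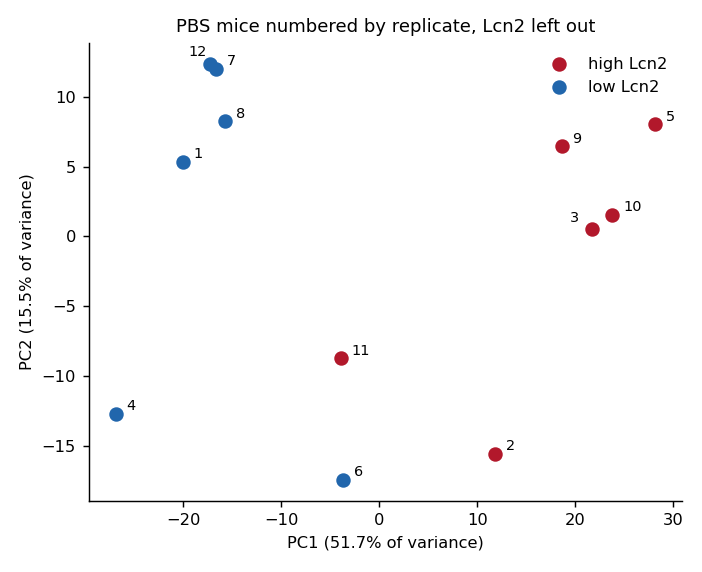
Scores of the 12 PBS mice on the first 2 principal components of log2(CPM + 1), numbered by replicate and coloured by Lcn2 arm. Mice 11 (high) and 6 (low) sit at −3.9 and −3.7 on the first component, between the other mice of the arms, and at −8.7 and −17.4 on the second.

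The genes with the largest separated differences in the upward direction included transcripts better known from nerve, tendon and bone than from kidney. Sult4a1, a sulfotransferase abundant in brain (chromosome 15, 84076097 to 84105754), ranged from 4.09 through a median of 8.57 to 9.58 CPM in high-Lcn2 mice and from 2.01 through 2.63 to 3.47 CPM in low-Lcn2 mice. Every high-Lcn2 mouse lay above every low-Lcn2 mouse, with a difference of 1.24 on the log2 scale, and wild-type kidneys held 0.155 CPM ± 0.108 (SD, n = 5). Basp1, a membrane-attached phosphoprotein of growing axons, differed by 1.08, with 12.5 to 26.9 CPM against 7.33 to 12.3 CPM. Mouse 11 at 12.5 CPM and mouse 6 at 12.3 CPM nearly met, so for Basp1 the absence of overlap rests on the border pair. Adamts16, a secreted metalloproteinase, differed by 1.02 (24.9 CPM ± 5.01 against 11.9 ± 2.89; SD, n = 6 each).

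Signalling molecules and transporters followed. Bmp3, a ligand of the BMP family, had 10.2 CPM ± 2.67 in high-Lcn2 mice and 4.81 ± 1.38 in low-Lcn2 mice. Scx, a transcription factor of tendon progenitors, had 19.4 ± 3.78 and 9.66 ± 2.21, and Thy1, a surface glycoprotein of T cells, neurons and fibroblasts, had 38.2 ± 7.07 and 19.5 ± 3.87 (SD, n = 6 each). The plasma protease inhibitor Serpina10 spanned 43.1 to 95.3 CPM against 26.7 to 39.8 CPM, and wild-type kidneys held at most 4.76 CPM. Trpv6, an epithelial calcium channel, ran from 16.9 through a median of 27.5 to 35.8 CPM in the high-Lcn2 arm and from 10.7 through 13.6 to 15.4 CPM in the low-Lcn2 arm. Ptgds, the lipocalin that makes prostaglandin D2, and Ctxn1, a small neuronal membrane protein, each differed by 0.92.

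The genes furthest below included several enzymes and transporters. Cyp2d12, a cytochrome P450 of a multigene family whose reads may be shared with close copies, had the largest downward difference, −1.74. It had 13.8 CPM ± 6.65 in high-Lcn2 mice and 46.8 ± 13.6 in low-Lcn2 mice (SD, n = 6 each), with at most 25.9 CPM in the former and at least 29.7 CPM in the latter. Fcamr, a receptor for IgA and IgM, had 9.25 CPM ± 2.88 against 20.7 ± 5.21, a difference of −1.09. Slc5a12, the sodium-coupled lactate carrier of the proximal tubule (chromosome 2, 110597299 to 110649345), ran from 62.4 through 92.7 to 143 CPM in high-Lcn2 mice and from 152 through 194 to 258 CPM in low-Lcn2 mice. All wild-type values of Slc5a12 were higher still, at 402 to 511 CPM.

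Slc18a1, a vesicular monoamine transporter, differed by −0.97, Aspa, which hydrolyses N-acetylaspartate, by −0.95, and A1cf, an RNA-binding cofactor of APOBEC1, by −0.96. Ugt1a9, a glucuronosyltransferase that shares its last exons with other Ugt1a genes, differed by −0.99, as did Stxbp5l, a regulator of vesicle fusion, and the membrane protein Lrrc19 differed by −0.95. For these genes the order was wild type, then low-Lcn2, then high-Lcn2, with Cyp2d12 as the exception, since wild-type kidneys held 11.6 CPM ± 5.80 (SD, n = 5) of it, about the level of the high-Lcn2 arm.

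**Figure D3:**
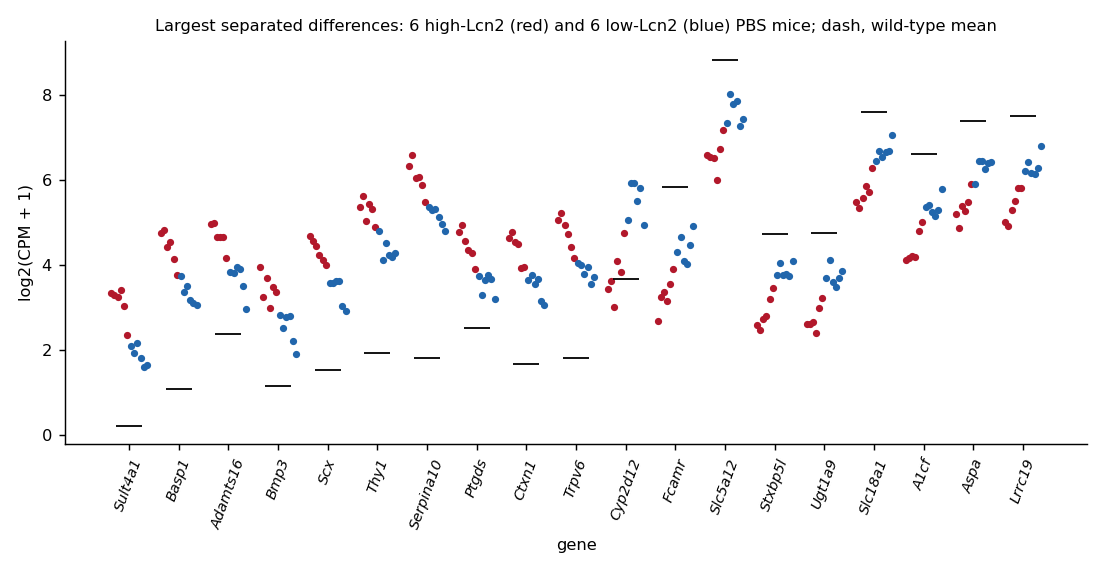
Level of the 10 separated genes with the largest positive and 9 of the 10 with the largest negative difference, as log2(CPM + 1) in each high-Lcn2 (red) and low-Lcn2 (blue) PBS mouse, with the wild-type mean as a dash. Mice are ordered by Lcn2 from left to right within each gene. Wild-type means lie below both arms for the 10 genes of positive difference and above both for those of negative difference other than Cyp2d12.

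Mice given RGLS4326 took no part in the choice of arms, and the same genes could be tested in them. The slope of each gene on log2(Lcn2 CPM + 1) was fitted across 13 treated mice, leaving out mouse 9, and is the log2 change per doubling of Lcn2. Of 13763 genes tested, 1943 (14.1%) had a positive and 1816 (13.2%) a negative slope at an adjusted p under 0.05 in edgeR's quasi-likelihood test. Of the 255 tested genes that were higher in the high-Lcn2 PBS arm, 192 (75.3%) had a positive slope and 0 a negative one. Of the 252 lower genes, 218 (86.5%) had a negative slope and 0 a positive one. At an unadjusted p under 0.05, and by DESeq2 at an adjusted p under 0.05, the counts against the PBS direction were likewise 0. Their median slopes were 0.33 and −0.26, beside 0.01 for all genes. With plain library sizes the split over all genes became 4477 positive and 791 negative, and 223 of the 255 and 202 of the 252 separated genes were called in their own direction. With treated mouse 9 included, 3069 (22.1%) of 13877 genes had a positive and 2773 (20%) a negative slope, and 237 of 256 and 207 of 252 separated genes were called in their own direction, while F5 of the lower genes then had a positive slope (0.22, adjusted p = 0.0353).

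Among the 20 genes of largest difference the slope in treated mice was steepest for Sult4a1, at 0.88 ± 0.15 (SE, n = 13, edgeR adjusted p = 0.00101), Adamts16, at 0.83 ± 0.06 (adjusted p = 7.81e-06), and Trpv6, at 0.72 ± 0.06 (adjusted p = 7.81e-06). On the negative side Fcamr had −0.63 ± 0.10 (adjusted p = 0.000662), Cyp2d12 −0.57 ± 0.12 (adjusted p = 0.00375) and Slc5a12 −0.52 ± 0.09 (adjusted p = 0.000732). Of the 20 genes of largest difference, 19 passed the test in the direction seen in PBS mice. A1cf missed the threshold, with a slope of −0.36 ± 0.13 and an adjusted p of 0.0554. With mouse 9 included, the slope of Cyp2d12 became 0.09 and lost its call (adjusted p = 0.605).

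The RGLS4326-treated mice were then compared with wild type, which sets each gene against a non-cystic kidney without using any PBS mouse, although genotype and treatment both differ there. Of 14885 genes tested, 3016 (20.3%) were higher and 1617 (10.9%) lower in treated Pcy/CD1 kidneys (edgeR, adjusted p under 0.05, absolute log2 fold change over 0.5). Genes higher in the high-Lcn2 arm were higher than in wild type for 248 of 266 (93.2%), and genes lower in it were lower than in wild type for 195 of 252 (77.4%). Without treated mouse 9 these counts were 250 of 266 and 203 of 252. Median log2 fold changes were 1.53 and −0.71, beside 0.01 for all genes. With plain library sizes 4476 genes were higher and 726 lower, and 256 of 266 and 123 of 252 (48.8%) separated genes were called in their own direction.

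A small number of genes went opposite ways along the range of Lcn2 and against wild type, and they were singled out after their values were seen. Dnase1, a secreted nuclease, spanned 808 to 1745 CPM in high-Lcn2 mice and 1772 to 2550 CPM in low-Lcn2 mice, yet was higher in treated Pcy/CD1 kidneys than in wild type by 0.88 (adjusted p = 0.000563). F5, coagulation factor V, had 19.2 CPM in the high-Lcn2 arm, 30.6 in the low-Lcn2 arm and 1.94 in wild type, with a log2 fold change against wild type of 3.73 (adjusted p = 5.09e-06). Cyp2d12 and 3110045C21Rik made up the 4 separated lower genes that were higher than in wild type, by 1.23 and 0.72. In the other direction Ccdc114, a gene of motile cilia, and Slc37a1, a sugar-phosphate exchanger, were higher in the high-Lcn2 arm and lower than in wild type by −0.85 and −0.53. The slope on Lcn2 in treated mice was negative for Dnase1 (−0.32, adjusted p = 0.00106) and F5 (−0.24, adjusted p = 0.0131) and positive for Ccdc114 (0.38, adjusted p = 0.00467) and Slc37a1 (0.22, adjusted p = 0.00369). These slopes rest on leaving out mouse 9. With it included they were 0.05 for Dnase1 (adjusted p = 0.549), 0.22 for F5 (adjusted p = 0.0353), −0.05 for Ccdc114 (adjusted p = 0.384) and −0.0032 for Slc37a1 (adjusted p = 0.937).

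**Figure D4:**
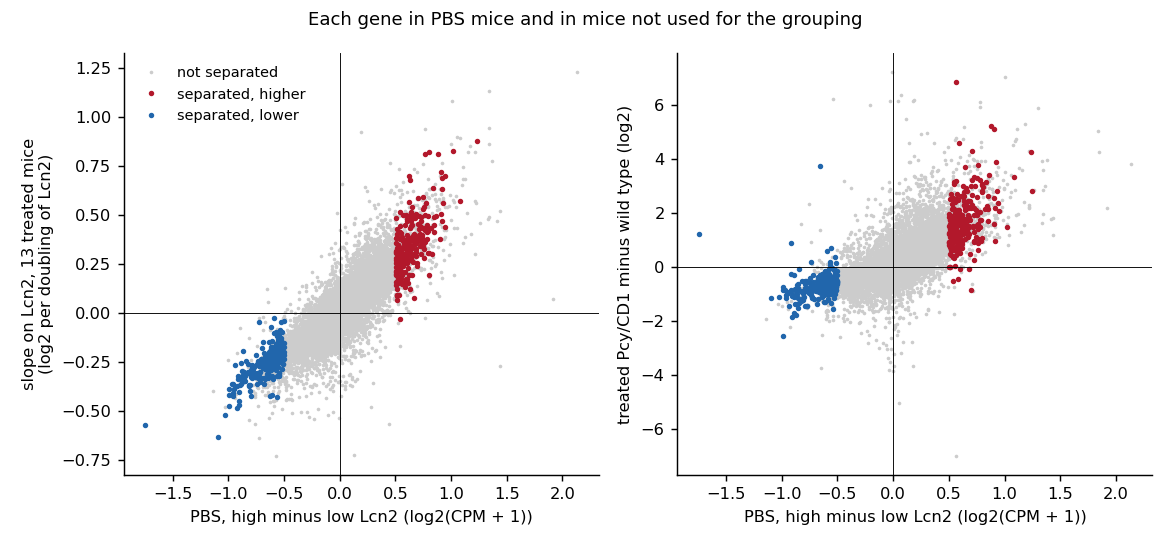
Each point is a gene, with the high-minus-low difference in PBS mice (log2(CPM + 1)) on the x axis of both panels. The y axis is the slope on Lcn2 in 13 treated mice (left) and the log2 fold change of 14 treated mice over wild type (right), with separated genes in red and blue. Slopes were positive for 192 of 255 red and negative for 218 of 252 blue genes at an adjusted p under 0.05.

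Of the 20 gene lists, that of the proximal tubule had the largest share of separated members. Of 22 measured members, 12 were lower in the high-Lcn2 arm with no overlap, against 1.66% of all genes. All 22 had a negative difference, while 51.8% of all genes had a positive one. The median was −0.60 against 0.01 for all genes. The mean log2(CPM + 1) of the list was 9.14 to 9.60 in high-Lcn2 mice, 9.65 to 10.02 in low-Lcn2 mice and 10.72 to 10.84 in wild type. The endocytic receptor megalin (Lrp2) ran from 559 through 1045 to 1457 CPM in high-Lcn2 mice and from 1586 through 1828 to 1945 CPM in low-Lcn2 mice. Gatm, the first enzyme of creatine synthesis, differed by −0.92, with 165 to 300 CPM against 338 to 441 CPM. The phosphate carrier Slc34a1 differed by −0.71 and the glucose carrier Slc5a2 by −0.55. In treated mice 18 of the 22 had a negative slope, against 13.2% of all genes, and 0 a positive one, among them Lrp2 at −0.31 (edgeR adjusted p = 0.00232), Gatm at −0.48 (adjusted p = 0.0011) and Slc34a1 at −0.30 (adjusted p = 0.00046), and 18 of 22 were lower than in wild type, against 10.9% of all genes.

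Fatty acid oxidation genes were lower to a lesser extent, with a median difference of −0.41 over 19 members. The separated members were Ppara, the nuclear receptor that induces this pathway, Ehhadh, the peroxisomal bifunctional enzyme, and Cyp4a12a, an omega-hydroxylase with a near-identical neighbour. Ehhadh had 249 to 365 CPM in high-Lcn2 mice and 434 to 622 CPM in low-Lcn2 mice, a difference of −0.72. Ppara had 47.4 to 68.4 CPM against 74.0 to 110 CPM, and wild-type kidneys had 208 CPM. Of the 19 genes, 11 had a negative slope on Lcn2 in treated mice, against 13.2% of all genes, and 0 a positive one. With plain library sizes 8 were negative, beside 791 of 13763 genes. Against wild type 7 of 19 were lower and 2 higher in treated mice, beside 10.9% and 20.3% of all genes.

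The lists of other nephron segments had smaller median differences. In the thick limb and distal list 1 of 15 members was separated, and the median difference was −0.07 with TMM and 0.07 with plain library sizes. That member was Pvalb, the calcium buffer of the distal convoluted tubule, with 1.49 to 3.79 CPM in high-Lcn2 mice, 5.32 to 7.80 CPM in low-Lcn2 mice and 66.3 CPM in wild type. Umod, the most abundant transcript of the thick limb, had 4202 CPM ± 507 and 4386 ± 183 (SD, n = 6 each), a difference of −0.07 that changed sign with plain library sizes. Egf, made in the distal nephron, overlapped because mouse 11 had 1019 CPM, while the other high-Lcn2 mice had 499 to 698 CPM and the low-Lcn2 mice 869 to 1193 CPM.

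Principal cell genes of the collecting duct had a median difference of 0.18 with 0 of 12 separated, and 9 of 12 had a positive slope in treated mice, against 14.1% of all genes. Intercalated cell genes had a median of −0.15 with 0 of 11 separated. Podocyte genes had a median of 0.09, and 8 of 10 had a positive difference. The 1 separated member went the other way. It was Clic5, a chloride channel protein of podocyte foot processes, with 61.7 to 95.8 CPM against 99.5 to 122 CPM. Endothelial genes had a median of −0.11 with TMM that became positive with plain library sizes, and 0 of 12 were separated. Plvap and Tek, both endothelial, were at 133 and 29.4 CPM in mouse 11, above the other high-Lcn2 mice.

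**Figure D5:**
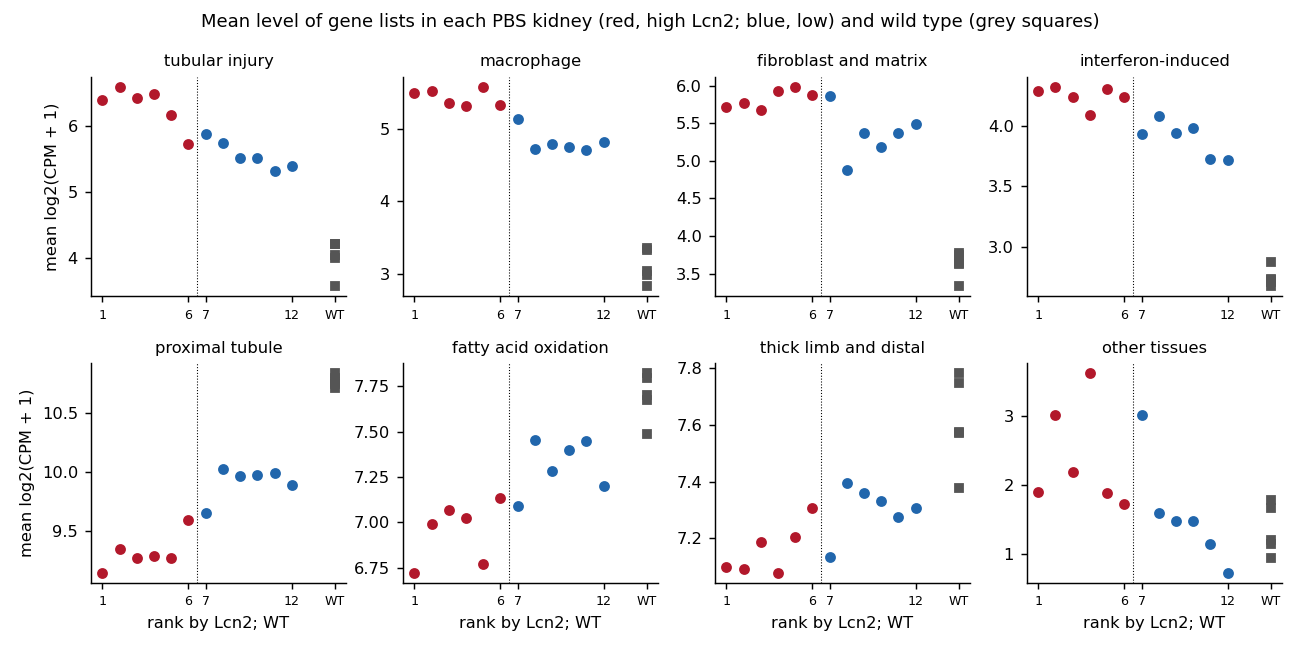
Mean log2(CPM + 1) of 8 gene lists in each PBS mouse, ordered by Lcn2 rank from 1 (highest) to 12, with the 6 high-Lcn2 mice in red, the 6 low-Lcn2 mice in blue and 5 wild-type mice as grey squares. The arms do not overlap for the macrophage, interferon-induced and proximal tubule lists, and mouse 6 at rank 7 has a raised level of the other-tissue list.

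Tubular injury genes had higher mean levels in the high-Lcn2 arm, and yet only 1 of 18, Anxa2, was separated. Anxa2, a calcium-dependent membrane-binding protein, had 181 to 268 CPM against 130 to 176 CPM. All 18 members had a positive difference, against 51.8% of all genes, with a median of 0.69. The list mean overlapped, with 5.73 to 6.59 in high-Lcn2 mice and 5.32 to 5.88 in low-Lcn2 mice. In several members the overlap came from mouse 11. Sox9, the transcription factor of regenerating tubule, had 12.9 to 24.9 CPM in the other 5 high-Lcn2 mice, 4.27 CPM in mouse 11 and 2.96 to 6.21 CPM in low-Lcn2 mice. Krt19, a keratin of collecting duct and injured epithelium, showed the same arrangement, with 45.6 to 64.0 CPM in those 5 mice, 24.9 CPM in mouse 11 and 11.2 to 32.9 CPM in low-Lcn2 mice. Spp1, osteopontin, differed by 0.66 and also overlapped, at 5046 CPM ± 806 and 3215 ± 700 (SD, n = 6 each).

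Havcr1, which encodes the injury marker Kim-1, did not follow Lcn2 among PBS mice to the same degree. Its values ran from 39.6 through 52.5 to 61.3 CPM in the high-Lcn2 arm and from 25.7 through 45.4 to 63.0 CPM in the low-Lcn2 arm. The arms overlapped, with 3 low-Lcn2 mice within the range of the high-Lcn2 arm or above it and 3 below it, and differed by 0.26, and low-Lcn2 mouse 12 had the highest value of all PBS mice. Across treated mice the slope of Havcr1 was nevertheless 0.57 ± 0.11 (SE, n = 13, edgeR adjusted p = 0.00211). In the list, 16 of 18 injury genes had a positive slope, against 14.1% of all genes, and 0 a negative one, and 17 of 18 were higher than in wild type, against 20.3% of all genes. Slpi was the exception, being lower than in wild type.

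Acute-phase genes had a median difference of 0.53, with 0 of 19 separated. C3, the central complement component, ran from 323 through 500 to 813 CPM in high-Lcn2 mice and from 187 through 237 to 326 CPM in low-Lcn2 mice, where high-Lcn2 mouse 11 at 323 CPM lay just below low-Lcn2 mouse 12 at 326 CPM. Of the 16 acute-phase genes tested in treated mice 11 had a positive slope, against 14.1% of all genes, and 0 a negative one. Among complement genes 2 of 12 were separated upward, against 1.77% of all genes. Those members were the anaphylatoxin receptors C3ar1 and C5ar1 of myeloid cells, with 15.4 to 18.1 CPM against 8.45 to 13.6 CPM for C3ar1.

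Macrophage genes were separated upward for 6 of 17 members, against 1.77% of all genes. All 17 had a positive difference, against 51.8% of all genes, with a median of 0.57. The list mean was 5.32 to 5.58 in high-Lcn2 mice, 4.71 to 5.14 in low-Lcn2 mice and 2.82 to 3.35 in wild type. The 3 chains of complement C1q, made by resident macrophages, were all separated, with 115 to 155 CPM against 67.1 to 83.7 CPM for C1qa, 99.5 to 145 against 58.2 to 76.7 for C1qb, and 101 to 128 against 62.1 to 77.4 for C1qc. Trem2, a lipid-sensing receptor, had 6.81 to 13.6 CPM against 3.84 to 5.57 CPM, and Itgam and Ms4a7 were the other separated members. In treated mice 6 of 17 had a positive slope, against 14.1% of all genes, namely Cd14, C1qa, C1qb, C1qc, Lgals3 and Trem2, and with mouse 9 included 15 of 17 did, against 22.1% of all genes in that fit. For C1qb the slope was 0.43 (edgeR adjusted p = 0.0137) and for Trem2 0.49 (adjusted p = 0.0151), and for Itgam it was 0.26 (adjusted p = 0.13), which passed the threshold with mouse 9 included (0.42, adjusted p = 0.000232).

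Gpnmb, a glycoprotein of lipid-laden macrophages, had the largest difference of the macrophage list, 1.92, and still overlapped. Its values were 40.4 CPM in mouse 2, 25.7 in mouse 10 and 6.86 to 14.6 in the other 4 high-Lcn2 mice, against 1.72 to 8.47 CPM in the low-Lcn2 arm. The slope of Gpnmb in treated mice was 0.07 ± 0.27 (SE, n = 13, edgeR adjusted p = 0.868). Lymphocyte genes had a median difference of 0.20, and Cd79b, a chain of the B cell receptor, was the separated member of 14, with 5.49 to 6.67 CPM against 2.97 to 4.97 CPM. Cd8a of cytotoxic T cells had a difference of −0.44, with overlap.

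Interferon-induced genes were separated upward for 5 of 16 members, against 1.77% of all genes. The separated members were Irf7, Oas1a, Isg15, Bst2 and Oasl2, and the median difference of the list was 0.39. Irf7, which drives the interferon response, ran from 32.7 through 39.6 to 47.0 CPM in high-Lcn2 mice and from 18.9 through 25.0 to 31.1 CPM in low-Lcn2 mice. Oas1a, a sensor of double-stranded RNA, had 8.08 to 10.6 CPM against 3.67 to 7.36 CPM. In the 13 treated mice 0 of 16 passed the edgeR test in either direction, against 14.1% and 13.2% of all genes, and the slope of Irf7 was 0.08 ± 0.12 (SE, n = 13, adjusted p = 0.665). At an unadjusted p under 0.05, and by DESeq2, 0 were positive and 1, Rsad2, was negative (slope −0.24). With treated mouse 9 included, 12 of 16 had a positive slope, against 22.1% of all genes in that fit, Irf7 among them (0.22, adjusted p = 0.0106), so this count rests on leaving out the mouse whose Lcn2 was within the range of wild type. The difference between PBS and treated mice was not tested. Against wild type 14 of 16 were higher in treated mice, beside 20.3% of all genes.

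Fibroblast and matrix genes had a median difference of 0.50. Against 1.77% of all genes, 5 of 18 members were separated upward. These were Timp1, an inhibitor of metalloproteinases, Mmp14, a membrane metalloproteinase, Tagln, of contractile cells, and the matrix proteins Sparc and Fbln2. Timp1 ran from 25.2 through 35.0 to 40.8 CPM in high-Lcn2 mice and from 15.4 through 16.6 to 23.8 CPM in low-Lcn2 mice, and wild type had at most 1.18 CPM. Postn, a matricellular protein, differed by 0.94 and overlapped only because mouse 6 had 10.2 CPM. In treated mice 8 of 18 had a positive slope, against 14.1% of all genes, with 0.81 ± 0.08 for Timp1 (edgeR adjusted p = 1.76e-05) and 0.42 ± 0.08 for Postn (adjusted p = 0.00219). With mouse 9 included 14 of 18 had a positive slope, against 22.1% of all genes in that fit, and 1, the proteoglycan Lum, a negative one.

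Among chemokines and cytokines 2 of 17 were separated upward, against 1.77% of all genes, with a median difference of 0.63. One was Il34, a ligand of the macrophage receptor Csf1r, with 69.1 to 126 CPM against 55.4 to 67.1 CPM. Low-Lcn2 mice were at the level of wild type for Il34 (61.0 CPM ± 4.09, n = 6, against 56.9 ± 5.94, n = 5; SD). The other was Ccl20, which attracts lymphocytes and dendritic cells, at 0.681 to 1.77 CPM against 0.149 to 0.651 CPM. Il1b differed by 0.77 with overlap. In treated mice 7 of 15 tested members had a positive slope, against 14.1% of all genes, and 14 of 15 did with mouse 9 included, against 22.1% in that fit.

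Cell cycle genes had a median difference of 0.40 with 0 of 20 separated, and 12 of 20 had a positive slope in treated mice, against 14.1% of all genes. With mouse 9 included 17 were positive and 1 negative, against 22.1% and 20% of all genes in that fit. With plain library sizes 19 were positive, beside 4477 of 13763 genes. The mitotic kinase Cdk1 had 5.32 to 11.6 CPM against 3.66 to 7.89 CPM. Mcm6, a subunit of the replicative helicase, differed by 0.54 between the arms and had a slope of 0.41 in treated mice (edgeR adjusted p = 0.00173), but its level was 32.6 CPM ± 1.88 in wild type (SD, n = 5) against 12.8 ± 2.75 and 8.44 ± 1.54 in the arms. With mouse 9 included the slope of Mcm6 turned to −0.23 (adjusted p = 0.00296).

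Genes whose loss causes cystic kidney disease had a median difference of 0.04, with 0 of 12 separated. Pkd2 differed by −0.30 and Pkd1 by 0.13, with overlap for both. In the 13 treated mice 4 of 12, Pkd2, Invs and Ift88 among them, had a negative slope, against 13.2% of all genes, and 0 a positive one. With mouse 9 included 3 were negative and 1 positive, against 20% and 22.1% of all genes in that fit. With plain library sizes 1 was negative and 2 were positive, beside 791 and 4477 of 13763 genes. In the fit without mouse 9, Pkd2 had a slope of −0.17 ± 0.04 (SE, n = 13, edgeR adjusted p = 0.00908) and Pkd1 one of 0.03 ± 0.04 (adjusted p = 0.62). With mouse 9 included the slope of Pkd2 was −0.02 and lost its call (adjusted p = 0.574). Of the Lcn2 and iron-handling genes 0 of 11 were separated, and Slc22a17, the proposed Lcn2 receptor, had 56.0 and 50.3 CPM.

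Neutrophils, which store Lcn2 protein in their granules, left few transcripts in these libraries. Of 13 markers listed, 1 was not found among the names in the files, and 4 were above the level needed for measurement, S100a8, S100a9, Ltf and Mmp9. In no PBS mouse did any of these 4 exceed 2.16 CPM, a level reached by Mmp9 in mouse 2, and the summed level of the list was 2.73 to 4.78 CPM in the high-Lcn2 arm and 1.30 to 4.73 CPM in the low-Lcn2 arm. The granule genes Elane, Mpo, Camp and Ngp had at most 15 counts in any PBS library. Lcn2 itself stood at 205 to 1205 CPM on the same scale. Which cells made the Lcn2 transcript was not tested.

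Of the 15 markers of other tissues 7 were measured, and 6 of these 7 had a positive difference, with a median of 0.82 and 0 separated. Over the settings run, this median ranged from 0.35, without mice 3, 5 and 6, to 1.64, between the 4 highest and the 4 lowest mice by Lcn2, and it was 0.38 without mouse 3 alone. The fat cell genes Adipoq and Plin1 differed by 0.82 and 0.79 with overlap, and Adipoq reached 9.35 CPM in the high-Lcn2 arm against 2.72 CPM in the low-Lcn2 arm. The urothelial plaque gene Upk3a had 34.0 CPM in mouse 5, 33.4 in mouse 3 and 10.4 to 19.7 in the other 4 high-Lcn2 mice, against 27.7 CPM in low-Lcn2 mouse 6 and 1.05 to 8.16 in the other 5 low-Lcn2 mice. The summed level of the list was 37.2 to 118 CPM in the high-Lcn2 arm and 6.68 to 98.2 CPM in the low-Lcn2 arm. Hba-a1 and Myh4 were at 0 in every PBS mouse. Without mice 3, 5 and 6, a setting chosen after the data were seen, 548 genes were separated upward and 403 downward, including 235 of the 268 and 230 of the 252 genes. The part of urothelium and fat in the other results was not tested.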

How the data were processed

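Poly(A) RNA from kidneys of 12 PBS-treated and 14 RGLS4326-treated Pcy/CD1 and 5 wild-type CD1 mice was sequenced on stranded libraries. The deposited values are raw counts per gene, which the authors obtained by trimming with Trim Galore, mapping with STAR on GRCm38 (mm10) and counting uniquely mapped reads with HTSeq 0.6.1. The strand setting is not given in the sources used here, so overlapping and antisense genes are uncertain. PBS dosing reads weekly in one label and monthly in another.

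Libraries held 14892524 to 27459962 counts on genes. Of 23509 genes, 15185 passed filterByExpr (edgeR 4.0.16, R 4.3.3) and were TMM-scaled. A pseudocount of 1 CPM was used. Groups came from the sample titles, and PBS arms were selected on Lcn2. No 2 PBS libraries agreed within sampling noise. Separate animals are the replicates. The slope and group tests were edgeR quasi-likelihood fits with Benjamini-Hochberg adjustment, and both were tested on simulated data. Standard errors are the absolute log2 value over the square root of F. DESeq2 1.42.0 served as an alternative. Promoters came from RefSeq (GRCm38.p6), read with Python 3.11.15.

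The arms, the 20 gene lists (305 of 307 entries matched) and the choice of genes named were made with earlier results of these data known. Named were the 10 largest separated differences each way with a mean of at least 5 CPM, without predicted gene names, the 2 largest in each list, the neutrophil markers, Havcr1, Spp1, Umod, Lrp2, Pkd1, Pkd2 and Slc22a17, and genes that fall under this rule but are withheld are not reported here. Other separated list members are named where a list had few.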

Additional observations from a re-analysis of the deposited data

Results flagged for a closer look

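In groups of 5 or 6 mice, 270 sets of values were screened for a mouse far from the others by Dixon's ratio, and 21 stood apart, where chance gives about 1 in 20.

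PBS mouse 6, first of the low-Lcn2 arm, accounted for the most. It was the highest of its arm in Upk3a (27.7 CPM, next 8.16), Upk1a (41.0, next 13.7), Hp (10.8, next 4.24), Gpnmb (8.47, next 3.49), Postn (10.2, next 5.93), Timp1 (23.8, next 16.6) and Synpo (78.2, next 55.2). It also had the highest macrophage list mean of its arm, 5.14 on the log2(CPM + 1) scale, and the lowest proximal tubule list mean, 9.65.

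PBS mouse 4, with the least Lcn2 of all PBS mice, was the highest of its arm in Slc18a1 (131 CPM, next 101), A1cf (54.1, next 41.3), Lrrc19 (110, next 84.3) and Cyp4a12a (665, next 454). PBS mouse 11, last of the high-Lcn2 arm, was the highest of its arm in Plvap (133 CPM, next 65.7) and the lowest in the chemokine and cytokine list mean (3.60). PBS mouse 3 was the lowest of the high-Lcn2 arm in the interferon list mean (4.09), and PBS mouse 1 had the smallest library of the low-Lcn2 arm (16519885 counts).

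In wild type, mouse 5 was the highest in Serpina10 (4.76 CPM), Hp (7.29 CPM) and Trf (60.4 CPM), and mouse 3 in Mmp9 (1.30 CPM).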

How the results depend on the processing

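With plain library sizes 576 genes were separated upward and 99 downward, slopes were positive for 4477 and negative for 791, and 726 were lower than in wild type. A pseudocount of 5 CPM left 119 separated upward, no minimum difference gave 775 and 874, and the 4 highest against the 4 lowest mice gave 1111 and 819. Without the border pair there were 927 and 624, and without mice 3, 5 and 6 there were 548 and 403, both settings added after the data were seen. Leaving out 1 PBS mouse gave 231 to 639 and 222 to 482, the upper ends being without mice 6 and 11. All 14 treated mice gave 3069 and 2773 slopes, and leaving out 1 of the 13 gave 1422 to 2059 and 1423 to 2020. Leaving out 1 wild-type mouse gave 2912 to 3065 and 1560 to 1624. DESeq2, its size factors, no filter, numbering series as a covariate and a pseudocount of 0.1 CPM kept every count within 1.5 times. Of the 520 separated genes 0 changed sign in the 22 settings of the PBS comparison, which their choice as genes without overlap largely fixes, while the difference of Umod and the medians of the thick limb and endothelial lists changed sign in at least 1 setting. The cause of these shifts was not tested.

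No paired analysis was possible for the PBS arms because they share one labelled group. Treated and wild-type mice share only replicate numbers (correlations of same-numbered mice −0.129 to 0.106, 5 pairs), and the fit with replicate block, on replicates 1 to 5 of both groups, gave 3098 and 1977, while the same mice without the block, a setting added after the data were seen, gave 3132 and 2006. Low counts limit the precision for genes near 1 CPM, such as Ccl20.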
